A study of Homo sapiens with 34 samples.

Results

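The clustered protocadherins are cell-surface proteins of the cadherin superfamily, encoded in 3 neighbouring gene clusters on chromosome 5. Every gene whose symbol starts with PCDHA, PCDHB or PCDHG was taken, apart from 5 symbols that end in P (PCDHB17P, PCDHB18P, PCDHB19P, PCDHGB8P and PCDHGB9P), which GENCODE types as pseudogenes. This left 54 of the 37951 genes listed, with 16 in PCDHA, 16 in PCDHB and 22 in PCDHG. PCDHA14 was kept, although GENCODE types it as a pseudogene too. The rule used symbols alone and no measured value. PCDHA holds 14 alpha genes and the C-type genes PCDHAC1 and PCDHAC2, and PCDHG holds 12 genes of the A type, 7 of the B type and the C-type genes PCDHGC3, PCDHGC4 and PCDHGC5.

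In the alpha and gamma clusters, each variable exon has its own promoter and is spliced to a short set of exons shared by the whole cluster, whereas each beta gene is complete in its own exon. The variable exon encodes the extracellular cadherin repeats and the membrane-spanning segment, and the shared exons of the alpha and gamma clusters encode the end of the cytoplasmic tail. In neurons, where the family is best known, single cells choose a few promoters by chance, with CTCF, cohesin and DNA methylation taking part, and the proteins then recognise identical partners on neighbouring cells. The C-type promoters are known to be used in a more uniform way than the others.

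RNA was sequenced from the human embryonic stem cell line ESI017, which is an established line, taken through primitive streak (PS) differentiation, in 17 conditions of 2 replicates and 34 libraries in total. Undifferentiated cells in mTeSR PLUS served as the control, labelled 48 h. For day 1, DE(a) was 2 µM CHIR with 100 ng/ml activin, and APS (anterior PS) was 4 µM CHIR, 30 ng/ml activin and 20 ng/ml bFGF. MPS (mid PS) was 6 µM CHIR, 40 ng/ml BMP4, 30 ng/ml activin and 20 ng/ml bFGF, and PPS (posterior PS) had the same factors as MPS except activin. CHIR activates Wnt signalling. Cells of each day 1 treatment were collected at 24 h or moved for the second day to 1 of 3 media and collected at 48 h. DE(b) medium, for definitive endoderm, was 250 nM LDN (a BMP receptor inhibitor) with 100 ng/ml activin. PM medium, for paraxial mesoderm, was 1 µM A8301 (an activin receptor inhibitor), 250 nM LDN and 20 ng/ml bFGF, and CHIR is listed for it in another place of the study. LM medium, for lateral mesoderm, was 4 µM IWP2 (an inhibitor of Wnt secretion), 1 µM A8301 and 30 ng/ml BMP4. A condition is named by its day 1 treatment and its medium, as in APS-PM. All libraries come from 1 wild-type line, and the labels number the replicates without saying that they were separate cultures. The study's supplement calls its RNA replicates biological without saying how they were grown, so the p-values measure the spread between these samples.

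The libraries held 15522780 to 23439799 estimated counts each, with a median of 19341117. Levels are given as CPM, the usual unit of counts scaled to a library's total, for replicate 1 and replicate 2 in that order or, over the 8 libraries of a medium or of 24 h, as the lowest, the median and the highest. Each sum of markers was highest in the medium of its label. SOX17, FOXA2, CXCR4 and CER1 together reached 3453 to 6432 CPM in DE(b) libraries. TBX6, MSGN1, HES7 and MEOX1 reached 263 to 416 CPM in PM libraries, and HAND1, FOXF1, ISL1 and TBX20 reached 465 to 2324 CPM in LM libraries. The endoderm sum was also 234 to 335 CPM in PM libraries, against 2.48 to 3.72 CPM in the control. It was highest in MPS-DE(b), at 6432 and 5964 CPM. Within DE(b) medium FOXA2 varied, with 86.0 and 125 CPM in DE(a)-DE(b), 52.9 and 79.1 CPM in APS-DE(b), 17.1 and 37.8 CPM in MPS-DE(b), and 2.17 and 11.0 CPM in PPS-DE(b).

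All members lie on the plus strand of chromosome 5 (GRCh38), PCDHA from 140786136 to 141012347, PCDHB from 141051374 to 141249365 and PCDHG from 141330514 to 141512977. The main transcripts of 15 PCDHA genes share 3 exons, at chr5:140978949-140979007, chr5:140982475-140982563 and chr5:141009627-141012347. Those of all 22 PCDHG genes share 3 exons as well, at chr5:141494807-141494865, chr5:141505393-141505481 and chr5:141510947-141512975. A read inside these exons cannot be given to 1 member by its sequence, so the quantification divided it by estimation. Over all annotated transcripts of a gene, the share of 75-base stretches found in no other gene's transcripts was 40.6% to 78.5% in 15 PCDHA genes. It was 0% in PCDHA14, 61.4% to 100% in PCDHB and 30.7% to 68.8% in PCDHG. PCDHGC3 has 8 annotated transcripts, of which 2 consist for over 70% of shared exons, and PCDHGC4 has 4, of which 1 does. PCDHGB7, PCDHGB6, PCDHGA10 and PCDHGC5 have none of this kind. How far reads of other gamma members entered the values of PCDHGC3 and PCDHGC4 was not tested.

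The stretches before the starts of 6 members are shown because the results below turn on PCDHGC3, PCDHGC4, PCDHGB7 and PCDHGA10, while PCDHA10 and PCDHB2 are the most abundant members of the other clusters. The sequences are RefSeq's, of GRCh38.p14, plus strand. Capitals mark GNCGCT on either strand (AGCGNC on the minus strand). These letters were chosen from these same sequences, around the CGCT core of a conserved element known from clustered protocadherin promoters. The stretches are chr5:141475716-141475965 for PCDHGC3, chr5:141484946-141485005 for PCDHGC4, chr5:141417427-141417676 for PCDHGB7, chr5:141412925-141412984 for PCDHGA10, chr5:141094538-141094597 for PCDHB2 and chr5:140855835-140855894 for PCDHA10.
PCDHGC3: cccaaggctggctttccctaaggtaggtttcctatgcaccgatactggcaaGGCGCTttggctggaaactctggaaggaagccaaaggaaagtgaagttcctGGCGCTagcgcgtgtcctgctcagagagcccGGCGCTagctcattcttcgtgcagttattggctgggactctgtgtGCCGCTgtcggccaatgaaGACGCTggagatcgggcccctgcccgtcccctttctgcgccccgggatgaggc
PCDHGC4: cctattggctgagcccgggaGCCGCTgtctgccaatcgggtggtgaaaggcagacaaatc
PCDHGB7: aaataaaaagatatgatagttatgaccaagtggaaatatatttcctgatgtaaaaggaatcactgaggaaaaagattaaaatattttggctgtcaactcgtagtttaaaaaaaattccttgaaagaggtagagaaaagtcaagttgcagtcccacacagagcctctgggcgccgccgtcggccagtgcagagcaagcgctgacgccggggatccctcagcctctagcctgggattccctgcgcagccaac
PCDHGA10: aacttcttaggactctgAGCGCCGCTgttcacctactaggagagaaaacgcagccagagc
PCDHB2: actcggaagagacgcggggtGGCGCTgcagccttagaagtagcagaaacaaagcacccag
PCDHA10: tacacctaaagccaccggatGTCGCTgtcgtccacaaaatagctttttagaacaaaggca
In PCDHGA10, matches on the plus and the minus strand overlap. Of the 47 members with a RefSeq promoter, 43 held the letters in the 250 bases before the start (91.5%), against 37.5% of the 35116 windows of all genes. Because the letters were chosen from member sequences, this comparison cannot test whether members hold them more often. PCDHGC3 had 5 matches and PCDHGB7 had 0, as had PCDHAC2, PCDHA9 and PCDHB8. PCDHGC3 and PCDHGB7 were the most abundant gamma members, and the letters were present in the first and absent from the second. The PCDHGB7 stretch does hold the CGCT core, without the leading G of the letters. Matches were not compared with level over all members.

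Transcripts of all 3 clusters were measured in every condition, control included. PCDHA measured 122 and 130 CPM in the control, PCDHB 97.0 and 102 CPM, and PCDHG 109 and 113 CPM. From 33 members in PPS-DE(b) to 45 in APS-LM reached 1 CPM in both replicates, with 37 in the control. With a minimum of 0.5 CPM the range was 41 to 50. PCDHB1, at 0 to 0.482 CPM, was the single member with too few counts to be tested, and the 5 pseudogene symbols summed to 0.985 to 4.17 CPM.

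Each cluster was led by few members. PCDHA10 was the highest of PCDHA in 17 of 17 conditions, with 20.5 and 24.7 CPM in the control and 18.1 to 46.8 CPM over all libraries. PCDHB2 was the highest of PCDHB in 17 of 17, with 33.9 and 35.3 CPM in the control and 27.1 to 42.1 CPM over all libraries. PCDHGC3 was the highest of PCDHG in 15 of 17, and PCDHGB7 led in PPS-24h and PPS-PM. Per kb of main transcript, the mean over all conditions was 12.8 CPM per kb for PCDHGC3, 9.40 for PCDHGB7, 8.32 for PCDHB2, 7.36 for PCDHB5 and 5.24 for PCDHA10. This is a rough scale for comparing genes, since counts cover all transcripts of a gene and reads of shared exons were divided by estimation.

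The clusters differed in how their sums varied over the media. PCDHG measured 121, 131 and 150 CPM (lowest, median, highest) at 24 h, 126, 157 and 175 CPM in DE(b) medium, 219, 341 and 430 CPM in PM medium, and 145, 223 and 286 CPM in LM medium. Every PM, LM, DE(b) and 24 h library lay above both controls. The mean in PM medium was 3.06 times that of the control, against 2.06 times in LM medium and 1.42 times in DE(b) medium. PCDHA stood at 0.820, 0.816 and 0.809 times the control in PM, LM and DE(b) medium, and PCDHB at 1.04, 1.07 and 0.908 times. No test was made of the sums. In bulk RNA, a change in the number of cells that use a promoter and a change in RNA per cell cannot be told apart.

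**Figure D1:**
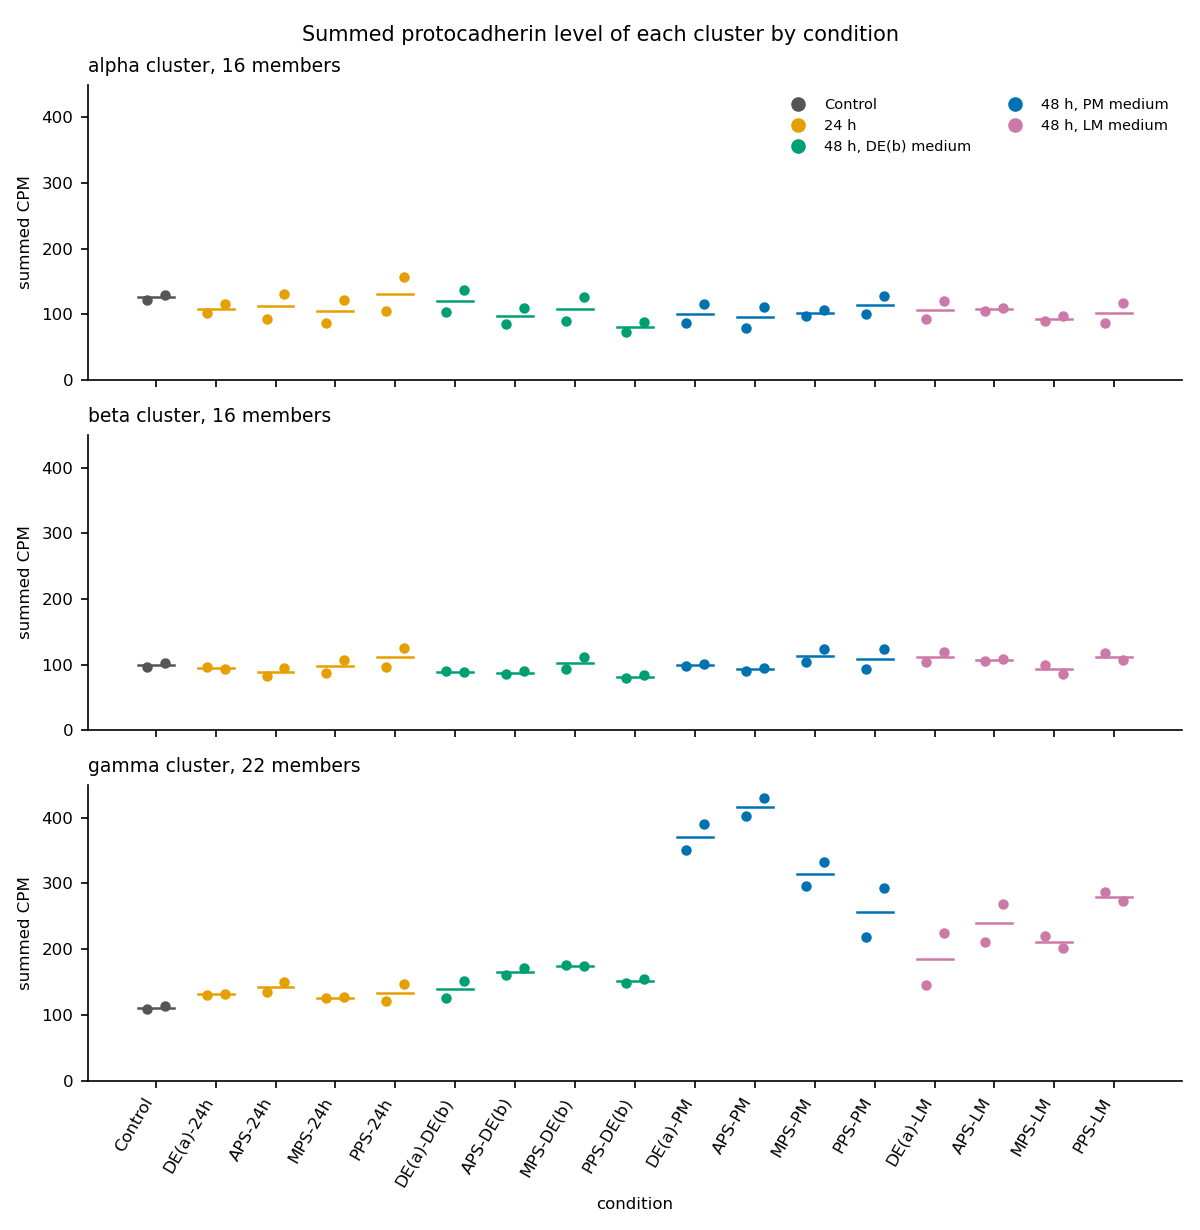
Summed level of the PCDHA, PCDHB and PCDHG members (CPM, linear axis from 0) in each of the 17 conditions, with a point for each replicate, a bar at their mean and colours by medium. The PCDHG sum runs from 109 CPM in a control library to 430 CPM in an APS-PM library, while PCDHA stays between 73.9 and 157 CPM and PCDHB between 79.6 and 126 CPM.

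The rise of PCDHG in PM medium was carried by few members. PCDHGC3, a C-type isoform, measured 27.1 and 17.1 CPM in the control and 49.9, 119 and 160 CPM in PM medium. PCDHGC4, another C-type isoform, measured 5.88 and 4.92 CPM in the control and 13.0, 35.6 and 49.6 CPM in PM medium. PCDHGB7, the last B-type gene of the cluster, measured 17.3 and 16.2 CPM in the control and 60.5, 79.8 and 89.7 CPM in PM medium. For these 3 genes no PM library overlapped the controls. The differences were 2.20 ± 0.21 on the log2 scale (SE, edgeR's quasi-likelihood test, adjusted p = 1.70e-08) for PCDHGC3, 2.47 ± 0.32 (edgeR adjusted p = 1.75e-06) for PCDHGC4 and 2.21 ± 0.16 (edgeR adjusted p = 2.73e-10) for PCDHGB7. All 3 passed in each of 15 other fits, which changed the normalization, filter, tool or design or left out 1 library.

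PCDHGA10, PCDHGB6 and PCDHGC5 also rose in PM medium. PCDHGA10 measured 8.82 and 9.71 CPM in the control and 20.4, 24.5 and 33.3 CPM in PM medium, a difference of 1.40 ± 0.20 (edgeR adjusted p = 5.61e-06). PCDHGB6 measured 12.8 and 11.5 CPM in the control and 19.7, 28.0 and 30.6 CPM in PM medium, a difference of 1.09 ± 0.24 (edgeR adjusted p = 8.19e-04). PCDHGC5, the remaining C-type isoform, was low, and its controls stood far apart. It measured 1.69 and 0.172 CPM in the control and 1.99, 3.29 and 7.92 CPM in PM medium, a difference of 1.89 ± 0.71 (edgeR adjusted p = 0.0349), which ranged from 1.05 to 4.37 over the other fits and missed the threshold in 1 of 15. PCDHGA11 measured 5.04 and 9.53 CPM in the control and 8.93, 21.1 and 31.6 CPM in PM medium. It did not pass (1.5 ± 0.73, edgeR adjusted p = 0.101). Its replicate 2 lay above its replicate 1 in every condition, and with a term for the replicate in the model it passed.

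Over the whole family, 19 of 53 tested members passed the threshold of 0.05 in PM medium against the control, 10 higher and 9 lower, where 45.0% of all tested genes passed, 22.3% higher and 22.7% lower. Of the 22 gamma members 6 were called higher. The median difference of the 53 members was -0.02 on the log2 scale, against 0.00 over all genes. The 2 control libraries decide much of these counts: 12 members passed without control replicate 1 and 10 without control replicate 2.

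**Figure D2:**
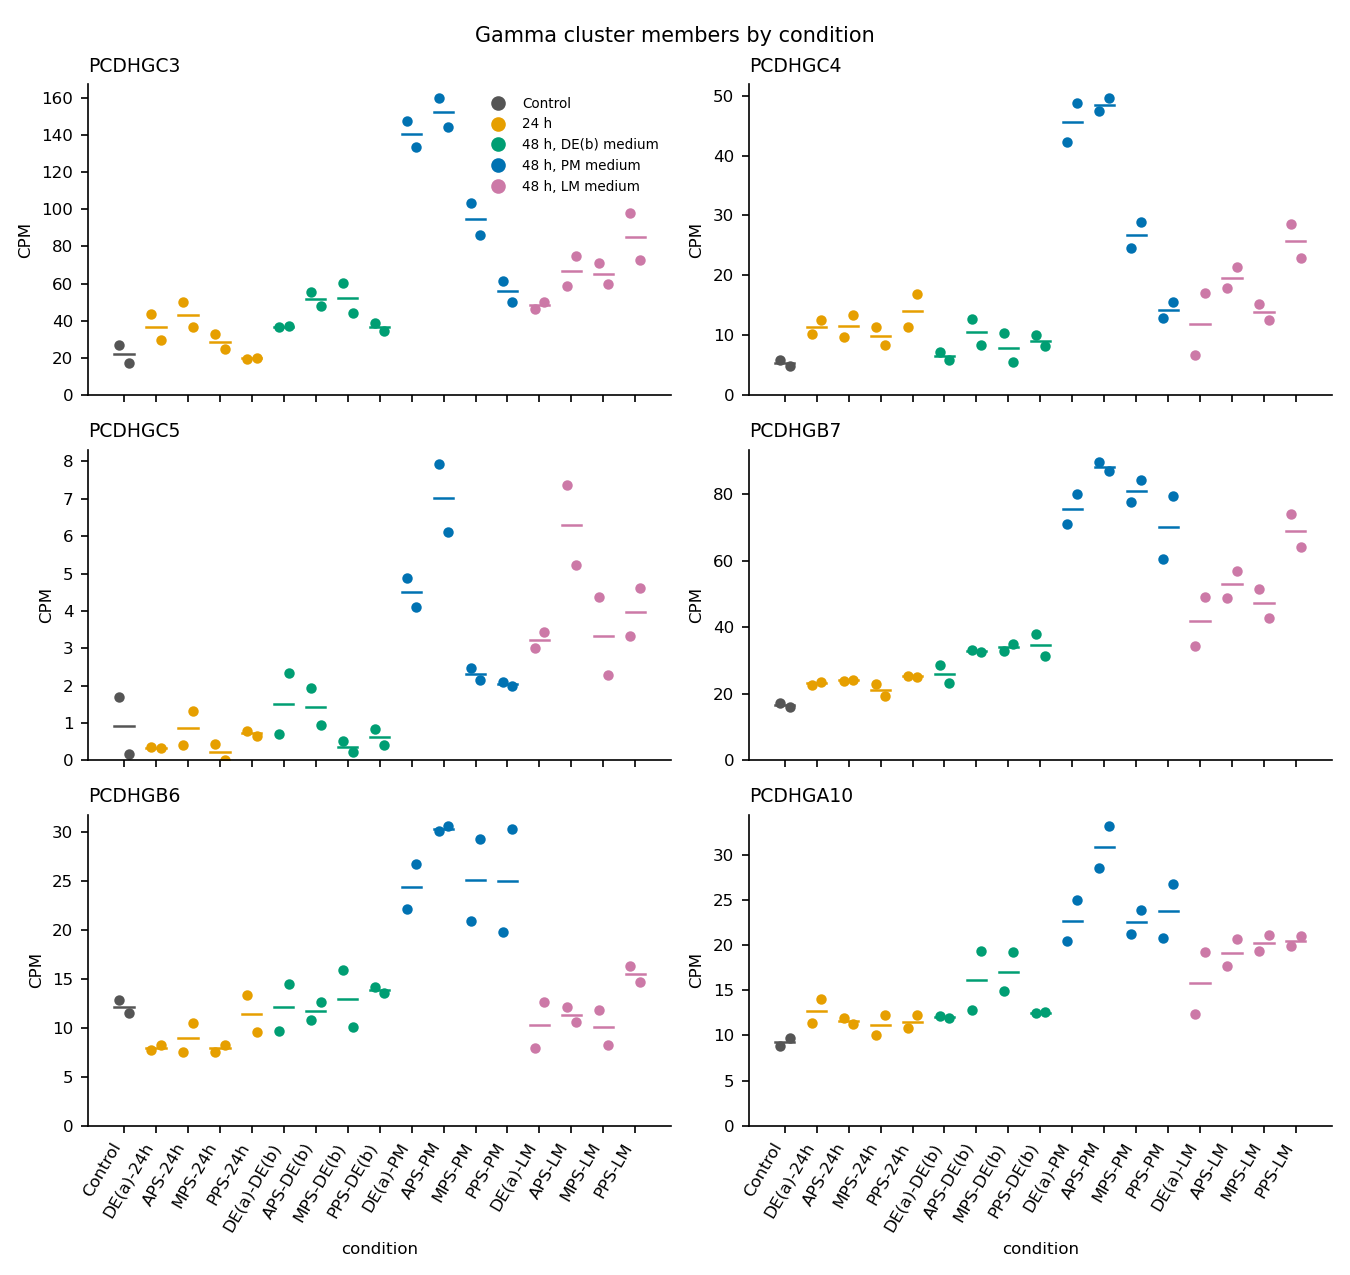
Levels (CPM, each panel on its own axis from 0) of PCDHGC3, PCDHGC4, PCDHGC5, PCDHGB7, PCDHGB6 and PCDHGA10 in each condition, with a point for each replicate, a bar at their mean and colours by medium. PCDHGC3 reaches 160 CPM and PCDHGB7 reaches 89.7 CPM in PM medium, against at most 27.1 and 17.3 CPM in the control.

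In LM medium the same kind of rise was smaller. PCDHGC3 measured 46.4, 65.2 and 98.1 CPM, PCDHGC4 6.67, 17.4 and 28.6 CPM, and PCDHGB7 34.3, 50.3 and 74.1 CPM. All of these values lay above both controls, and the differences from the control were 1.60 ± 0.20, 1.70 ± 0.31 and 1.67 ± 0.16 on the log2 scale, with edgeR adjusted p-values of 8.37e-07, 9.14e-05 and 9.39e-09. PCDHGC5 (2.28, 3.91 and 7.38 CPM) and PCDHGA10 (12.4, 19.7 and 21.2 CPM) rose too, whereas PCDHGB6 lay at 7.91, 12.0 and 16.3 CPM, around its control. Of the 53 members 15 passed, 9 higher and 6 lower, where 48.9% of all genes passed, 24.3% higher and 24.6% lower. PCDHA13 (-1.70) and PCDHB12 (-1.32) were the alpha and beta genes that fell most on the log2 scale, and PCDHA3 (1.01) and PCDHB8 (2.36 ± 0.76) those that rose most. Without control replicate 2, 9 members passed.

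In DE(b) medium 14 of 53 members passed, 5 higher and 9 lower, where 45.3% of all genes passed, 22.4% higher and 22.9% lower. PCDHGC3 measured 34.8, 41.5 and 60.4 CPM and differed from the control by 1.02 ± 0.19 (edgeR adjusted p = 1.61e-04). PCDHGB7 measured 23.1, 32.8 and 37.9 CPM and differed by 0.96 ± 0.15 (edgeR adjusted p = 1.61e-05). PCDHGC4, at 5.54, 8.28 and 12.7 CPM, did not pass. PCDHGB1 was the gamma member called lower, from 1.36 and 3.90 CPM in the control to 0.362, 0.895 and 2.18 CPM, with overlapping libraries. Without control replicate 1, 9 members passed, and without control replicate 2, 7 did.

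Markers of other cell types also differed between the media. Of 7 neural markers (PAX6, SOX1, NEUROD1, DCX, STMN2, ELAVL4 and SYT1) the sum ran from 86.3 to 190 CPM in PM libraries, against 50.9 to 65.5 CPM in the control and 21.3 to 75.2 CPM in LM libraries. SYT1, a synaptic vesicle protein, made up most of it, with 55.8 to 188 CPM in PM medium, and PAX6, SOX1, NEUROD1 and ELAVL4 were under 1 CPM in every PM library. The neural sum was 141 and 190 CPM in PPS-PM, where PCDHGC3 averaged 55.8 CPM. It was 86.3 and 110 CPM in APS-PM, where PCDHGC3 averaged 152 CPM. In DE(a)-PM it was 106 and 109 CPM, and in MPS-PM 87.6 and 135 CPM. Of 4 amnion markers (TFAP2A, GABRP, VTCN1 and WNT6) the sum ran from 26.3 to 251 CPM in LM libraries, against 3.02 to 10.05 CPM in PM libraries and 3.43 to 4.47 CPM in the control. The part of such cells in the protocadherin levels was not tested.

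The gamma members that rose lie together at the end of their cluster. Of 22 gamma genes in chromosome order, the 6 called higher in PM medium were among the last 8, from PCDHGB6 to PCDHGC5, and 0 were among the first 14, whose differences ran from -0.72 to 0.72 with a median of -0.15. In LM medium 5 of the last 8 were called higher and in DE(b) medium 3 of the last 8, again with 0 of the first 14. Over all tested genes 22.3% were called higher in PM, 24.3% in LM and 22.4% in DE(b) medium. The division into 14 and 8 was made after these values were seen, and the 3 comparisons share the control libraries. The 2 parts also differ in level. Apart from PCDHGB4 (16.4 CPM), the first 14 averaged 0.561 to 3.51 CPM over all conditions, where a change is harder to call. The last 8 averaged 13.5 CPM or more, apart from PCDHGA12 (0.870 CPM) and PCDHGC5 (2.34 CPM). The part of level in this split was not tested. PCDHGA11 and PCDHGA12, among the last 8, were not called in PM medium, although PCDHGA11 passed with a term for the replicate in the model.

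**Figure D3:**
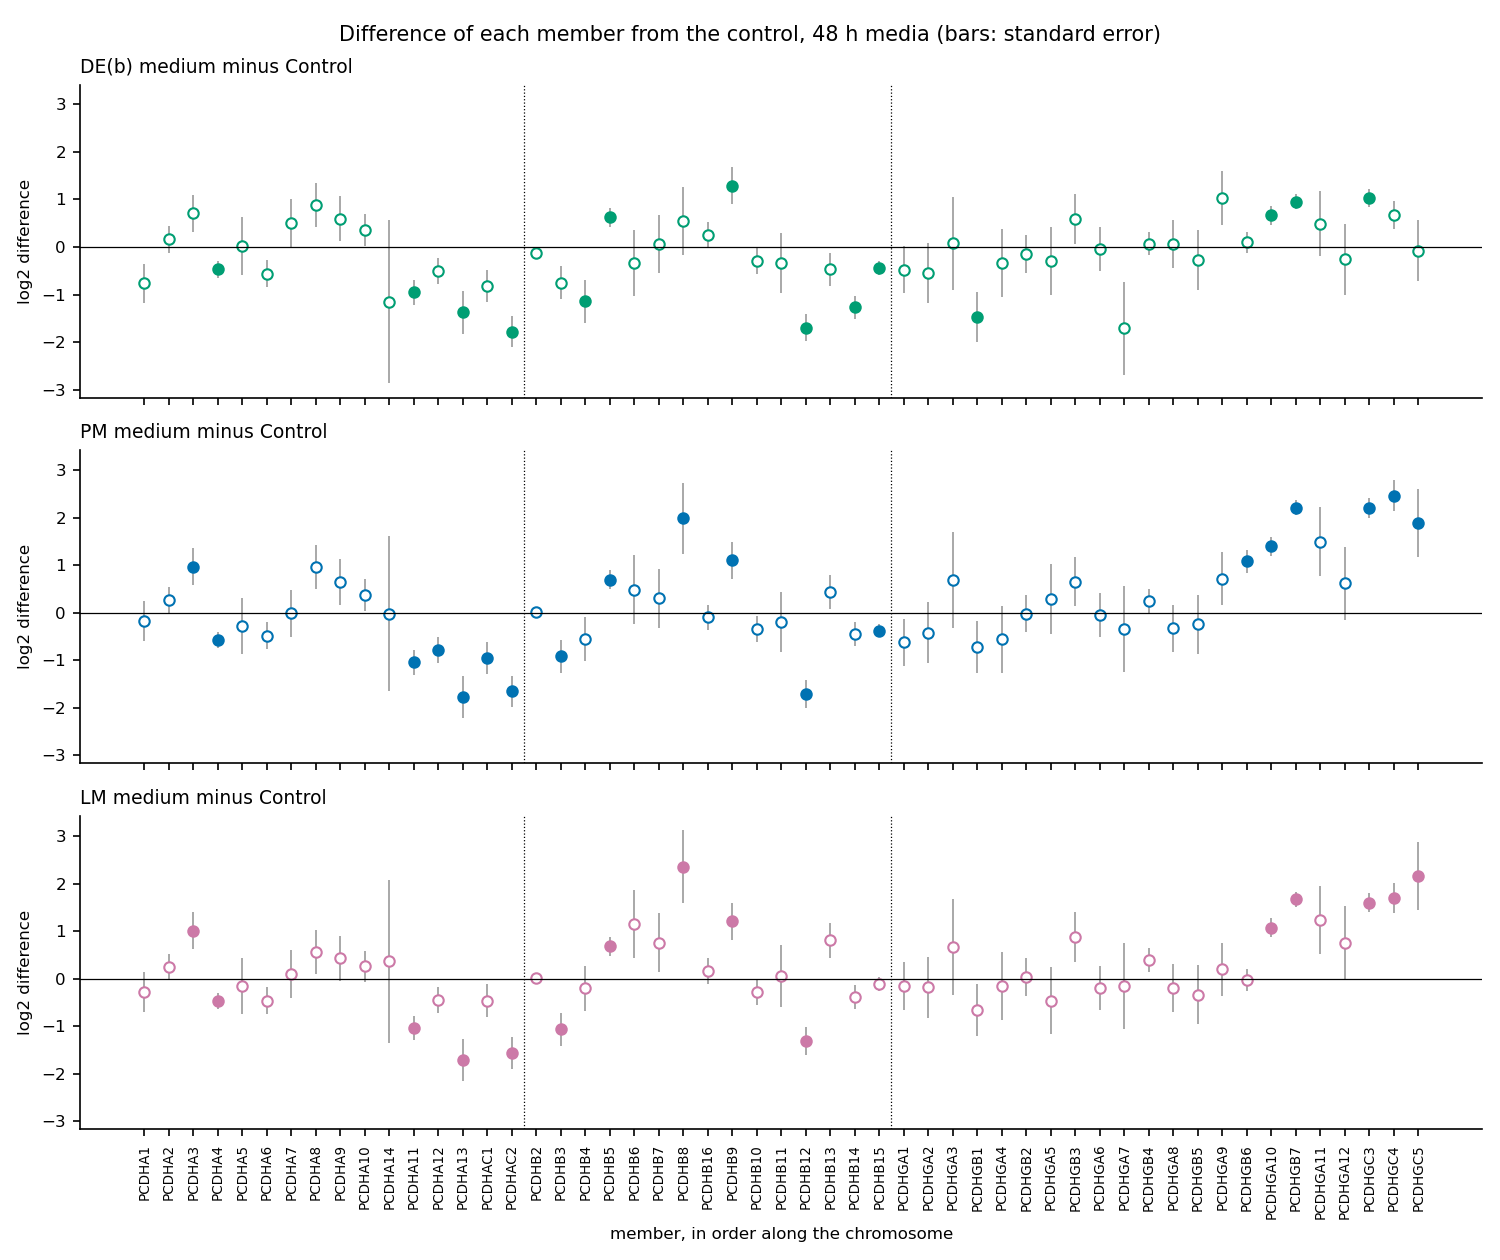
Difference from the control (log2, points with SE bars, filled where the adjusted p is under 0.05) of the 53 tested members in chromosome order, for DE(b), PM and LM medium, with dotted lines between clusters. In PM medium the filled gamma points above 0 are the 6 among the last 8 genes, and the last 5 alpha points lie below 0.

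In PM medium the end of the alpha cluster went the other way. PCDHAC2, a C-type isoform, measured 13.1 and 11.1 CPM in the control, 1.28, 3.45 and 8.04 CPM in DE(b) medium, 2.43, 3.84 and 7.25 CPM in PM medium, and 1.65, 3.45 and 12.2 CPM in LM medium. Its DE(b) and PM libraries all lay below the controls, and 1 LM library lay between them. The differences from the control were -1.78 ± 0.33, -1.65 ± 0.33 and -1.57 ± 0.34 on the log2 scale, with edgeR adjusted p-values of 1.47e-04, 3.25e-04 and 5.18e-04. PCDHAC1, at 3.62 and 4.20 CPM in the control and 1.39, 1.98 and 3.36 CPM in PM medium, differed by -0.94 ± 0.34 (edgeR adjusted p = 0.0275) and missed the threshold in 3 of 15 other fits. PCDHA13, from 4.19 and 4.39 CPM to 0.241, 1.25 and 3.25 CPM, fell most in PM medium (-1.78 ± 0.45, edgeR adjusted p = 0.00240).

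Of the alpha genes, 7 of 16 passed in PM medium, 1 higher and 6 lower. Over all tested genes 45.0% passed, 22.3% higher and 22.7% lower. The last 5 genes of the cluster, PCDHA11, PCDHA12, PCDHA13, PCDHAC1 and PCDHAC2, were all lower. This cut at the last 5 was made after these values were seen. In LM medium PCDHA12 (-0.44, edgeR adjusted p = 0.193) and PCDHAC1 (-0.47, edgeR adjusted p = 0.280) were not called. PCDHA11 measured 14.9 and 15.9 CPM in the control and 5.96, 7.22 and 9.39 CPM in PM medium, with no overlap. PCDHA3 was the alpha gene called higher, from 4.03 and 4.89 CPM to 5.47, 8.63 and 12.9 CPM (0.97 ± 0.39, edgeR adjusted p = 0.0474), and it missed the threshold in 8 of 15 other fits. PCDHA10, the leading alpha gene, was not called in any of the 3 media.

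Among the beta genes, 3 rose and 3 fell in PM medium, against 22.3% and 22.7% of all tested genes. PCDHB5 measured 16 and 15.6 CPM in the control and 18.9, 25.6 and 31.4 CPM in PM medium, a difference of 0.70 ± 0.20 (edgeR adjusted p = 0.00633), and all 32 differentiated libraries lay above both controls. PCDHB12 measured 3.98 and 5.49 CPM in the control and 0.956, 1.37 and 3.13 CPM in PM medium, a difference of -1.71 ± 0.29 (edgeR adjusted p = 4.07e-05), and all 32 differentiated libraries lay below both controls. PCDHB8 was low, with 0.287 and 0.757 CPM in the control and 0.756, 1.92 and 3.66 CPM in PM medium, and its difference of 1.99 ± 0.75 (edgeR adjusted p = 0.0340) missed the threshold in 7 of 15 other fits. In DE(b) medium PCDHB9 rose most among the beta genes, from 1.22 and 0.800 CPM to 0.930, 2.40 and 3.99 CPM, and PCDHB12 fell most (-1.70 ± 0.29). In all 3 media PCDHB2, the leading beta gene, was not called.

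At 24 h PCDHGC4 was called higher than the control in all 4 day 1 treatments. From 5.88 and 4.92 CPM in the control it went to 10.2 and 12.6 CPM in DE(a)-24h, 9.78 and 13.4 CPM in APS-24h, 11.3 and 8.4 CPM in MPS-24h, and 11.3 and 16.9 CPM in PPS-24h. The differences lay between 0.97 ± 0.35 (MPS-24h, edgeR adjusted p = 0.0429) and 1.40 ± 0.35 (PPS-24h, edgeR adjusted p = 0.00440). The 4 comparisons share the control libraries. Since the control is labelled 48 h, treatment and time in culture cannot be told apart in them. PCDHGC3 passed in DE(a)-24h (43.6 and 29.5 CPM) and APS-24h (50.01 and 36.5 CPM), and not in MPS-24h (32.7 and 24.7 CPM) or PPS-24h, where its 19.6 and 19.9 CPM lay between the controls. PCDHGB7 passed in DE(a)-24h (22.7 and 23.6 CPM, 0.57 ± 0.18, edgeR adjusted p = 0.0272), APS-24h (24.0 and 24.1 CPM, 0.60 ± 0.18, edgeR adjusted p = 0.0147) and PPS-24h (0.62 ± 0.18, edgeR adjusted p = 0.0111). In MPS-24h, at 22.8 and 19.4 CPM, it did not pass (0.43 ± 0.18, edgeR adjusted p = 0.0699). The PCDHGB7 calls missed the threshold in 6, 5 and 2 of 9 other fits in DE(a)-24h, APS-24h and PPS-24h.

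PCDHB5 was also higher in all 4 day 1 treatments, with 22.2 to 34.7 CPM over the 8 libraries. PCDHB15, a beta gene at 18.4 and 16.8 CPM in the control, was called lower in DE(a)-24h (10.02 and 8.99 CPM), APS-24h (9.0 and 8.33 CPM) and MPS-24h (9.91 and 8.84 CPM). PCDHAC2 fell in MPS-24h, to 2.18 and 2.72 CPM (-2.22 ± 0.49, edgeR adjusted p = 0.00123). In PPS-24h it measured 9.99 and 10.6 CPM.

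Counts at 24 h were 6 of 53 members in DE(a)-24h (4 higher, 2 lower), where 19.0% of all genes passed, 10.3% higher and 8.68% lower. In APS-24h 8 passed (4 higher, 4 lower), where 24.5% of all genes did, 13.6% higher and 11.0% lower. In MPS-24h 7 passed (3 higher, 4 lower), against 30.0% of all genes, 16.5% higher and 13.4% lower, and in PPS-24h 6 passed (5 higher, 1 lower), against 29.8%, 16.4% higher and 13.4% lower. The largest calls not yet named were PCDHB14 in DE(a)-24h (-1.17 ± 0.33), PCDHB10 in APS-24h (-1.59 ± 0.36), and PCDHB8 in MPS-24h (2.62 ± 0.86) and PPS-24h (2.67 ± 0.86), with PCDHB12 lower in both (-1.60 and -1.20). PCDHGB3 was called higher in PPS-24h (1.77 ± 0.64), on replicates of 1.66 and 4.74 CPM. Without control replicate 2 the counts were 2 in DE(a)-24h, 3 in APS-24h and 3 in PPS-24h. Without control replicate 1 they were 5 in APS-24h and 4 in MPS-24h, without APS-24h replicate 2 the count was 3 in APS-24h, and without PPS-24h replicate 2 it was 2 in PPS-24h.

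Few members passed between neighbouring day 1 treatments, where the share of all genes that passed was small too. By edgeR, 0 of 53 members passed between APS-24h and DE(a)-24h, where 0.732% of all genes passed, 0.609% higher and 0.123% lower. Between MPS-24h and APS-24h edgeR also called 0 members, where 2.93% of all genes passed, 1.89% higher and 1.03% lower. In each of these comparisons 3 members had an unadjusted p under 0.05, and DESeq2 called 0. Between PPS-24h and MPS-24h, 1 member passed, PCDHAC2 (2.00 ± 0.49, edgeR adjusted p = 0.0150), where 6.14% of all genes passed, 2.79% higher and 3.35% lower. No member passed without either MPS-24h library or without PPS-24h replicate 2, and 2 passed without PPS-24h replicate 1.

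The second day of each standard protocol was compared with its first day. From APS-24h to APS-PM, 9 of 53 members passed, 8 higher and 1 lower, where 25.1% of all genes passed, 11.9% higher and 13.2% lower. PCDHGC3 went from 50.01 and 36.5 to 160 and 144 CPM, PCDHGC4 from 9.78 and 13.4 to 47.4 and 49.6 CPM, and PCDHGB7 from 24.0 and 24.1 to 89.7 and 86.8 CPM. All 3 genes were higher in both APS-PM libraries than in either APS-24h library, by 1.71 ± 0.23, 1.96 ± 0.35 and 1.78 ± 0.18 on the log2 scale (edgeR adjusted p = 9.54e-06, 2.21e-04 and 2.08e-07). PCDHGC5 rose from 0.416 and 1.32 to 7.92 and 6.11 CPM, and PCDHA12 fell from 24.0 and 19.8 to 7.76 and 10.9 CPM (-1.33 ± 0.36). PCDHA3 (1.37 ± 0.47) and PCDHB10 (1.22 ± 0.36) were the alpha and beta genes called higher.

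From MPS-24h to MPS-LM, 7 of 53 members passed, 5 higher and 2 lower, where 31.3% of all genes passed, 14.4% higher and 16.9% lower. PCDHGC3 went from 32.7 and 24.7 to 70.9 and 59.6 CPM and PCDHGB7 from 22.8 and 19.4 to 51.5 and 42.9 CPM. PCDHGC5, at 0.434 and 0 CPM in MPS-24h (where a count of 0 allows up to 3 counts of the library's total), measured 4.37 and 2.28 CPM in MPS-LM. PCDHAC2 rose from 2.18 and 2.72 to 4.52 and 7.37 CPM (1.29 ± 0.48, edgeR adjusted p = 0.0457), and PCDHB3 fell from 3.16 and 4.30 to 1.90 and 0.736 CPM. PCDHA11 fell from 8.49 and 17.6 to 5.20 and 6.74 CPM (-1.13 ± 0.35). Without MPS-24h replicate 2, 4 members passed.

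From DE(a)-24h to DE(a)-DE(b), 1 member passed, PCDHB10, from 1.76 and 1.58 to 3.62 and 3.68 CPM (1.06 ± 0.35, edgeR adjusted p = 0.0286), where 28.0% of all genes passed, 14.5% higher and 13.5% lower. Without DE(a)-24h replicate 2 or DE(a)-DE(b) replicate 2, 0 members passed, and without DE(a)-DE(b) replicate 1, 2 others did. PCDHGC3, at 43.6 and 29.5 CPM before and 36.5 and 37.3 CPM after, did not pass.

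Set against each other, the media differed in the gamma and beta clusters, and 0 of 16 alpha genes passed in any of these comparisons. Against PM medium, DE(b) medium had 9 of 53 members lower and 0 higher, where 43.0% of all genes passed, 21.4% higher and 21.6% lower. The largest gamma difference was that of PCDHGC5 (-1.97 ± 0.42, edgeR adjusted p = 5.22e-04), followed by PCDHGC4 (-1.79 ± 0.18) and PCDHGB7 (-1.26 ± 0.09, edgeR adjusted p = 7.79e-11). The highest DE(b) library lay below the lowest PM library for PCDHGC4 by a narrow margin, at 12.7 against 13.0 CPM, and for PCDHGB7 by a wide margin, at 37.9 against 60.5 CPM. PCDHB8 was the beta gene that differed most (-1.45 ± 0.42, edgeR adjusted p = 0.00711).

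Against PM medium, LM medium had 6 members called, 1 higher and 5 lower, where 42.0% of all genes passed, 21.0% higher and 21.0% lower. PCDHGB6 differed most, with every LM library, at most 16.3 CPM, below every PM library, at least 19.7 CPM (-1.12 ± 0.14, edgeR adjusted p = 1.17e-06). PCDHGC4, PCDHGC3, PCDHGB7 and PCDHGA10 were lower by smaller amounts, with overlapping libraries, and PCDHB15 was higher (0.27 ± 0.09, edgeR adjusted p = 0.0237). Against DE(b) medium, LM medium had 11 members higher and 0 lower, where 39.6% of all genes passed, 19.8% higher and 19.8% lower. These were 5 gamma genes, led by PCDHGC5 (2.24 ± 0.42, edgeR adjusted p = 1.59e-04), and 6 beta genes, led by PCDHB8 (1.82 ± 0.42, edgeR adjusted p = 0.00124).

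After day 2, some members still differed by day 1 treatment, in a direction that depended on the medium. In PM medium PCDHGC3 measured 147 and 134 CPM after DE(a), 160 and 144 CPM after APS, 103 and 85.9 CPM after MPS, and 61.6 and 49.9 CPM after PPS. In LM medium it measured 46.4 and 50.2 CPM after DE(a), 59 and 74.8 CPM after APS, 70.9 and 59.6 CPM after MPS, and 98.1 and 72.4 CPM after PPS. In PM medium PPS origin gave the lowest values, and in LM medium the highest value was of PPS origin. PPS-PM differed from DE(a)-PM by -1.32 ± 0.23 (edgeR adjusted p = 6.27e-04) and PPS-LM from DE(a)-LM by 0.91 ± 0.23 (edgeR adjusted p = 0.00754).

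PCDHGC4 differed in the same directions. It measured 42.3 and 48.8 CPM in DE(a)-PM against 13.0 and 15.5 CPM in PPS-PM (-1.66 ± 0.34, edgeR adjusted p = 0.00334), and 6.67 and 17.1 CPM in DE(a)-LM against 28.6 and 22.9 CPM in PPS-LM (1.18 ± 0.34, edgeR adjusted p = 0.0217). The PM differences of both genes passed in each of 9 other fits. The LM differences rest on few libraries: without DE(a)-LM replicate 1 the edgeR adjusted p was 0.0900 for PCDHGC3 and 0.319 for PCDHGC4, and without PPS-LM replicate 1 it was 0.124 and 0.141. Of LM libraries, the 4 amnion markers summed to 61.7 and 101 CPM in DE(a)-LM and 165 and 251 CPM in PPS-LM, and the 4 lateral mesoderm markers to 465 and 952 CPM in DE(a)-LM and 2092 and 2039 CPM in PPS-LM. Their part in the LM differences by origin was not tested. In DE(b) medium PCDHGC3 and PCDHGC4 did not differ by origin past the threshold.

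**Figure D4:**
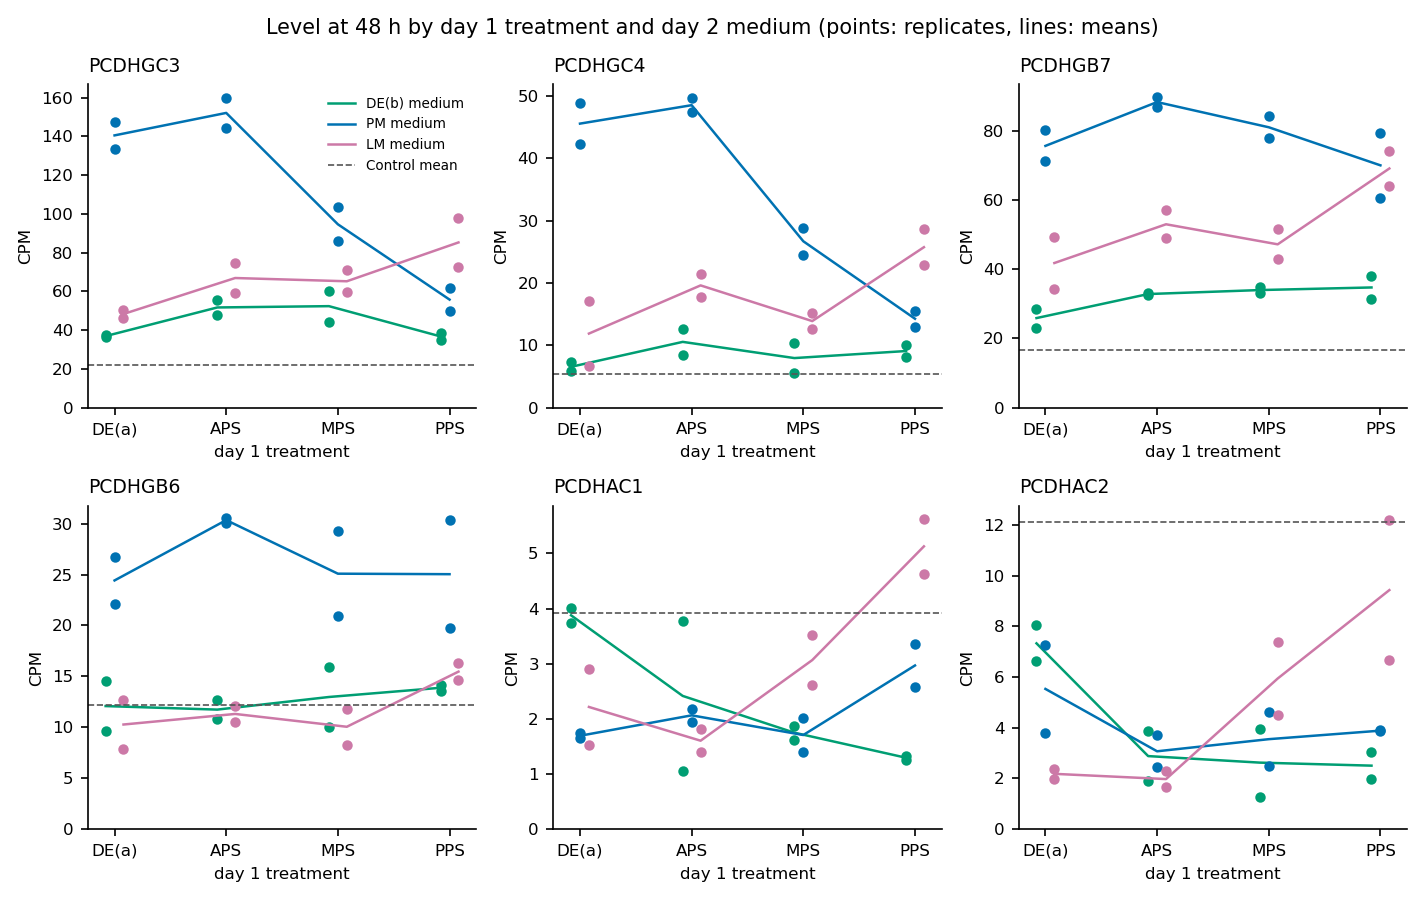
Levels (CPM) of PCDHGC3, PCDHGC4, PCDHGB7, PCDHGB6, PCDHAC1 and PCDHAC2 by day 1 treatment, coloured by medium, with a point for each replicate, solid lines through the means and a dashed line at the control mean. PCDHGC3 runs from 147 and 134 CPM after DE(a) down to 61.6 and 49.9 CPM after PPS in PM medium, and from 46.4 and 50.2 up to 98.1 and 72.4 CPM in LM medium.

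The C-type alpha isoforms differed by origin as well. PCDHAC2 measured 8.04 and 6.62 CPM in DE(a)-DE(b) against 1.96 and 3.04 CPM in PPS-DE(b) (-1.51 ± 0.49, edgeR adjusted p = 0.0343), and 1.97 and 2.39 CPM in DE(a)-LM against 6.66 and 12.2 CPM in PPS-LM (2.20 ± 0.49, edgeR adjusted p = 0.00313). PCDHAC1 measured 3.74 and 4.01 CPM in DE(a)-DE(b) against 1.25 and 1.33 CPM in PPS-DE(b) (-1.54 ± 0.47, edgeR adjusted p = 0.0268). The DE(b) differences missed the threshold in 4 of 9 other fits for PCDHAC2 and 6 of 9 for PCDHAC1, and that of PCDHAC2 in LM medium in 2 of 9. Among the beta genes, PCDHB10 was lower (-1.39 ± 0.36) and PCDHB14 higher (0.98 ± 0.33) in PPS-DE(b) than in DE(a)-DE(b). PPS-DE(b) also had the lowest FOXA2 and SOX17 in DE(b) medium, with SOX17 at 113 and 224 CPM against 330 to 553 CPM in the other DE(b) libraries. The part of these cells in the protocadherin values was not tested.

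By origin, 5 of 53 members passed in DE(b) medium (1 higher, 4 lower), where 17.4% of all genes passed, 8.63% higher and 8.73% lower. In PM medium 2 passed (0 higher, 2 lower), where 8.61% of all genes did, 3.67% higher and 4.95% lower. In LM medium 4 passed (4 higher, 0 lower), where 14.3% of all genes did, 6.52% higher and 7.81% lower. In DE(b) medium the count was 3 without DE(a)-DE(b) replicate 1, 2 without DE(a)-DE(b) replicate 2, 1 without PPS-DE(b) replicate 1 and 0 without PPS-DE(b) replicate 2. In LM medium it was 1 without DE(a)-LM replicate 1, 7 without DE(a)-LM replicate 2 and 2 without PPS-LM replicate 1.

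Whether the effect of origin differed between the media was tested directly. Of 53 members 7 passed this interaction test, where 13.7% of all genes passed, so members passed about as often as genes in general. The 7 members were PCDHGC3 (edgeR adjusted p = 1.63e-04), PCDHGC4, PCDHAC2, PCDHAC1, PCDHB10, PCDHA4 and PCDHGB7. Without PPS-DE(b) replicate 1, 4 passed. The difference between PPS and DE(a) origin was larger in LM than in PM medium by 2.23 ± 0.32 for PCDHGC3 (edgeR adjusted p = 1.13e-04), 2.84 ± 0.49 for PCDHGC4 (edgeR adjusted p = 6.58e-04) and 0.90 ± 0.24 for PCDHGB7 (edgeR adjusted p = 0.0261) on the log2 scale, with 6.52% of all genes passing. It was larger in LM than in DE(b) medium by 3.72 ± 0.69 for PCDHAC2 (edgeR adjusted p = 9.83e-04) and 2.82 ± 0.66 for PCDHAC1 (edgeR adjusted p = 0.00726), with 8.99% of all genes passing.

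Genes known to act on or with the clustered protocadherins were taken from 4 lists. Each count below for PM, LM and DE(b) medium against the control stands beside 45.0%, 48.9% and 45.3% of all genes called in that comparison. CTCF and cohesin shape the loops that bring enhancers to protocadherin promoters. Of 11 genes for them, 0 were called in the 4 comparisons of 24 h with the control. There 19.0% (DE(a)-24h), 24.5% (APS-24h), 30.0% (MPS-24h) and 29.8% (PPS-24h) of all genes were called. Counts at 24 h are given for this list alone. Of the same 11 genes 2 were called in PM (1 higher, 1 lower), 3 in LM (2 higher, 1 lower) and 2 in DE(b) medium (1 higher, 1 lower). CTCF itself averaged 163 CPM in the control, 125 CPM in DE(b), 117 CPM in PM and 117 CPM in LM medium, lower in all 3 (-0.34 ± 0.07, -0.50 ± 0.07 and -0.44 ± 0.07 on the log2 scale). SMC3, a cohesin subunit, was higher in DE(b) than in PM medium (0.44 ± 0.11), at 244 against 187 CPM.

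Of 15 genes for promoter silencing and DNA methylation, 6 passed in PM (1 higher, 5 lower), 9 in LM (3 higher, 6 lower) and 9 in DE(b) medium (2 higher, 7 lower) against the control. DNMT3B, a de novo DNA methyltransferase, fell most, from 2781 CPM in the control to 240 CPM in PM, 347 CPM in LM and 469 CPM in DE(b) medium, with log2 differences of -3.60 ± 0.12, -3.00 ± 0.12 and -2.58 ± 0.12. SMCHD1, a chromatin protein known to repress protocadherin genes, averaged 90.9 CPM in the control and 117, 108 and 118 CPM in DE(b), PM and LM medium, and passed in DE(b) (0.39 ± 0.11, edgeR adjusted p = 0.00595) and LM medium (0.41 ± 0.11, edgeR adjusted p = 0.00404). Between media the largest called rise was that of DNMT3B (1.02 ± 0.09, DE(b) against PM) and the largest called fall that of DNMT1 (-0.66 ± 0.08, DE(b) against PM), and TET2, which oxidises methylated cytosine, was higher in LM than in PM medium (0.98 ± 0.12).

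Of 15 genes for cytoplasmic partners, 9 passed in PM (6 higher, 3 lower), 9 in LM (5 higher, 4 lower) and 4 in DE(b) medium (3 higher, 1 lower). RET, a receptor kinase that binds protocadherins, was higher in DE(b) than in PM medium, at 15 against 2.47 CPM (2.12 ± 0.23), and lower in LM than in DE(b) medium (-3.29 ± 0.25), at 1.18 CPM. Of 7 genes for the cleavage of these proteins at the surface, ADAM10 and the gamma-secretase subunits, 4 passed in PM (2 higher, 2 lower), 4 in LM (2 higher, 2 lower) and 3 in DE(b) medium (2 higher, 1 lower). PSEN2, a catalytic subunit of gamma-secretase, was lower in LM than in PM medium, at 6.80 against 17.7 CPM (-1.37 ± 0.14).

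The replicates come from separate tables, and some members differed between them in a fixed direction. Replicate 2 was the higher in 17 of 17 conditions for PCDHA10 (summed over conditions 1.5 times replicate 1), PCDHB8 (2.02 times), PCDHGA11 (2.39 times) and PCDHGA3 (3.60 times). These are 4 of 54 members (7.41%), against 74 of the 14647 genes that averaged 1 CPM or more (0.505%). Replicate 2 was the lower in every condition for 188 of these genes (1.28%) and for 0 of 54 members. The PCDHA sum was higher in replicate 2 in 17 of 17 conditions and the PCDHG sum in 14, whereas PCDHGC3 was higher in replicate 2 in 4 of 17. With 1 library of each table per condition, a difference between the tables and one between the replicates cannot be told apart.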

How the data were processed

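RNA sequencing libraries of ESI017 cells were analysed, 34 in all, in 17 conditions with 2 replicates (0 columns without a sample). According to their methods, the authors quantified transcripts with Salmon 1.10.2 against GRCh38, with sequence and GC bias correction, and summed them to genes in R 4.4.2. The annotation release is not given in the sources used here. The deposited values are estimated counts per gene, not normalized for depth or gene length.

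Estimated counts were rounded and tested with edgeR 4.0.16 (R 4.3.3, limma 3.58.1): TMM, filterByExpr by condition (17895 of 37951 genes), 1 mean per condition over all libraries, quasi-likelihood tests and Benjamini-Hochberg adjustment over all genes kept at 0.05. SEs come from the log2 fold change and its F value. The fit had a common dispersion of 0.0611 and 17 residual degrees of freedom. CPM used the total of a library. Alternatives were RLE normalization, no filter, DESeq2 1.42.0, a replicate term, only the libraries compared, each library left out, and for summed CPM the TMM-scaled library size. Counting limits cover counting error only. Positions, transcripts and types come from GENCODE, and promoters from RefSeq.

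Named with fuller values were the C-type isoforms, the 3 members with the highest mean CPM in each cluster, and the called member with the largest rise and fall in each comparison and cluster. From 4 lists of other genes, the counts, the largest called differences between media, CTCF, SMCHD1 and DNMT3B were given. The members and lists were chosen with earlier results of these data known.

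The test was checked on simulated data for PPS-PM against DE(a)-PM with 17895 genes. It found 101 of 200 altered genes with their true sign, with 5 false calls. Recovery was 90.7% for a log2 change of 2 and 13.7% for a log2 change of 1.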

Additional observations from a re-analysis of the deposited data

Results flagged for a closer look

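For 7 members the difference between PPS and DE(a) origin was not the same in DE(b), PM and LM medium, by the interaction test of edgeR over all genes, which 13.7% of all genes passed. Without PPS-DE(b) replicate 1, 4 members passed. The adjusted p was 1.63e-04 for PCDHGC3, 7.01e-04 for PCDHGC4, 0.00175 for PCDHAC2, 0.00921 for PCDHAC1, 0.0197 for PCDHB10, 0.0278 for PCDHA4 and 0.0378 for PCDHGB7. PCDHB10 measured 3.62 and 3.68 CPM in DE(a)-DE(b) against 1.52 and 1.17 CPM in PPS-DE(b), and 2.09 and 2.09 CPM in DE(a)-PM against 2.41 and 4.21 CPM in PPS-PM. PCDHA4 measured 12.5 and 11.7 CPM in DE(a)-DE(b) against 6.42 and 6.66 CPM in PPS-DE(b), and 8.57 and 10.1 CPM in DE(a)-LM against 10.8 and 11.2 CPM in PPS-LM. PCDHGB7 measured 71.1 and 80.1 CPM in DE(a)-PM against 60.5 and 79.4 CPM in PPS-PM, and 34.3 and 49.2 CPM in DE(a)-LM against 74.1 and 64.1 CPM in PPS-LM.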

How the results depend on the processing

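Counts of called members were computed for 20 comparisons under 242 alternatives, of which 204 were within 1.5 times the reported count. Without the filter on low counts, 3 members passed in DE(a)-24h against the control, 1 in MPS-24h against APS-24h, 3 in PPS-24h against MPS-24h, 2 in DE(a)-DE(b) against DE(a)-24h and 3 between PPS and DE(a) origin in DE(b) medium. With only the libraries compared, which leaves fewer samples, the counts were 3 in PPS-24h against the control, 0 in DE(a)-DE(b) against DE(a)-24h and 1 between PPS and DE(a) origin in DE(b) medium. DESeq2 called 2 in DE(a)-DE(b) against DE(a)-24h. The cause of the other moves was not tested.

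With each library left out, counts ran from 2 to 4 (DE(a)-24h), 3 to 6 (APS-24h), 4 to 6 (MPS-24h) and 2 to 5 (PPS-24h) against the control, and from 7 to 16 (DE(b)), 10 to 19 (PM) and 9 to 15 (LM medium). Between day 1 treatments they were 0 to 0 for APS against DE(a) and MPS against APS, and 0 to 2 for PPS against MPS. They ran from 0 to 2 (DE(a)-DE(b)), 6 to 8 (APS-PM) and 4 to 6 (MPS-LM) against 24 h, from 9 to 13 (DE(b) against PM), 4 to 6 (LM against PM) and 10 to 14 (LM against DE(b)), from 0 to 3, 2 to 3 and 1 to 7 by origin in DE(b), PM and LM medium, and from 4 to 7 in the interaction. A condition left with 1 library was assumed to vary like the others. Of 1242 alternative values for single members, 1073 stayed on the same side of the threshold, 169 no longer passed and 0 changed direction. All 96 single-member calls held with DESeq2.

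The replicate numbers were not taken as pairs, since over 136 pairs of conditions the correlation of same-numbered deviations ran from -0.0743 to 0.340, with a median of 0.0755 and 43 over 0.1, although some members differed between replicates in 1 direction throughout. With a replicate block, DE(a)-DE(b) against DE(a)-24h had 2 calls, PM medium against the control 21 and DE(b) against PM medium 13, and all 96 single-member calls held. PCDHGA11 (1.38 ± 0.31, edgeR adjusted p = 8.41e-04) and PCDHA6 (-0.50 ± 0.17, edgeR adjusted p = 0.0174) were called in PM medium with the block and not without it.

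In the simulation of PPS-PM against DE(a)-PM, with 2 replicates each, 13.7% of changes of 1 log2 unit were recovered. A member that missed the threshold is therefore not shown to be unchanged. Recovery in comparisons of media, which average several conditions, was not simulated.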
